A study of Rattus norvegicus with 6 samples.

Results

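The NRF2 antioxidant pathway and the superoxide dismutases were followed through 10 genes of primary heart muscle cell cultures exposed to progesterone, a steroid hormone. The genes are Nfe2l2, which encodes the transcription factor NRF2, its well-known targets Hmox1, Nqo1, Gclc, Gclm, Txnrd1 and Srxn1, and the dismutase genes Sod1, Sod2 and Sod3. They were chosen by symbol from 33565 rows of a gene count table. Of the 10, 9 were found by the symbol in the table, and Srxn1 through the NCBI gene accession in the description of a row with a clone name. All 10 passed the filter on low counts and were tested.

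Heart cells were taken from 7-day-old Sprague-Dawley rats and cultured with fetal bovine serum. The 3 control cultures received vehicle, and the 3 progesterone cultures received 100 nM progesterone, each for 24 h. No line, transgene or sorting step is named, and the labels do not say whether replicates came from separate animals, so each p-value reflects the variation among these cultures only, possibly of a technical kind. Library totals ran from 21156793 to 25376220 counts. All 13 cardiomyocyte marker genes with a row were read, with a summed level of 21380 to 21885 CPM (counts scaled for library size with TMM factors) in controls and 23184 to 26328 with progesterone. Among them 6 rose, 5 fell and 2 did not pass, and their median log2 fold change was 0.03. Over all genes tested 31.2% rose and 31.8% fell, the shares against which marker counts are to be read. The 11 fibroblast markers summed to 28008 to 29204 and 37901 to 40788 CPM, so RNA of fibroblast marker genes was abundant too. In such bulk samples, fewer cells of a type and less RNA per cell cannot be told apart.

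NRF2 is held in the cytoplasm by KEAP1, which hands it to a cullin 3 ubiquitin ligase for breakdown. Oxidants and electrophiles modify KEAP1, and NRF2 then accumulates, pairs with small MAF proteins and binds antioxidant response elements in genes for glutathione synthesis, thioredoxin reduction, quinone reduction and heme breakdown. Superoxide dismutases convert superoxide into hydrogen peroxide and oxygen: SOD1 uses copper and zinc in the cytosol, SOD2 uses manganese in the mitochondrial matrix, and SOD3 is a secreted copper and zinc enzyme. NRF2 is controlled largely through protein stability, which mRNA levels do not measure.

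The bases before the start sites show which members carry the letters of an antioxidant response element close to the gene. The core TGACNNNGC was searched on both strands in the 250 bases before each start in RefSeq promoters of build GRCr8, where 8 of the 10 members had an entry, with 9 start sites. Hmox1 and Sod3 had no entry and were not searched. The core occurred in 3 members, Gclm, Txnrd1 (at the start site inside the gene) and Sod2. It occurred at any start site in 13.2% of the 10391 tested genes with an entry. Of all 33469 promoters, each counted singly, 10.1% held it. All 3 matches lie on the reverse strand, so the capitals show the core as its reverse complement, GCNNNGTCA. They are shown because Gclm and Txnrd1 are NRF2 targets and Sod2 changed most:
Gclm (chr2:213031953-213031981, plus strand): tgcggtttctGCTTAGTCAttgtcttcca
Txnrd1 (chr7:22755964-22755992, minus strand): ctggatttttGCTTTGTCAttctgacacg
Sod2 (chr1:50050185-50050213, minus strand): ggcgctgccgGCAGGGTCAgcgcctagct
The match ended 163 bases before the start in Gclm, 69 in Txnrd1 and 26 in Sod2. None overlapped an AP-1 (TGACTCA) or CRE (TGACGTCA) motif. The GC box GGGCGG, searched on both strands, occurred at any start site in all 8 and in 59.5% of tested genes with an entry. These windows do not cover distant enhancers, and a match is a description of the letters alone. The 250 bases before the start of the dismutase genes Sod1 and Sod2 are given in full, with the single core match of Sod2 in capitals:
Sod1 (chr11:42942573-42942822, plus strand): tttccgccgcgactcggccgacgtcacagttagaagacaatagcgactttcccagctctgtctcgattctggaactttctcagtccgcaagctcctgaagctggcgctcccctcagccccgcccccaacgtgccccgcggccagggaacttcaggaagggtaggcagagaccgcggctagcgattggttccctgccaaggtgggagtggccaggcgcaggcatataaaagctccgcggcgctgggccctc
Sod2 (chr1:50050169-50050418, minus strand): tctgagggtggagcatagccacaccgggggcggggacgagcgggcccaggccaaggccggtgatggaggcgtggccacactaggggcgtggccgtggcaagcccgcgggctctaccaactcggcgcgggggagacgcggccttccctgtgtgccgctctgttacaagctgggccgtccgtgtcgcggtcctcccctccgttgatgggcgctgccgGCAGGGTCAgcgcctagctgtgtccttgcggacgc

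The 3 dismutase mRNAs were lower with progesterone, and Sod2 fell most. Of the 6 NRF2 targets, Txnrd1 and Srxn1 were lower, while Hmox1, Nqo1, Gclc and Gclm did not pass the test. In all, 6 of the 10 members were lower and none was higher at an adjusted p under 0.05 (edgeR's quasi-likelihood test, adjusted over 15075 genes), and their median log2 fold change was -0.32. Over all genes tested the median was 0.00, and 63.0% changed, 31.8% lower and 31.2% higher. The share of changed members, 6 of 10, was thus close to that of all genes. CPM values of the groups did not overlap in 7 of 10 members, and in 68.6% of all genes tested. Only Sod2 among the members fell by at least 2-fold.

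**Figure D1:**
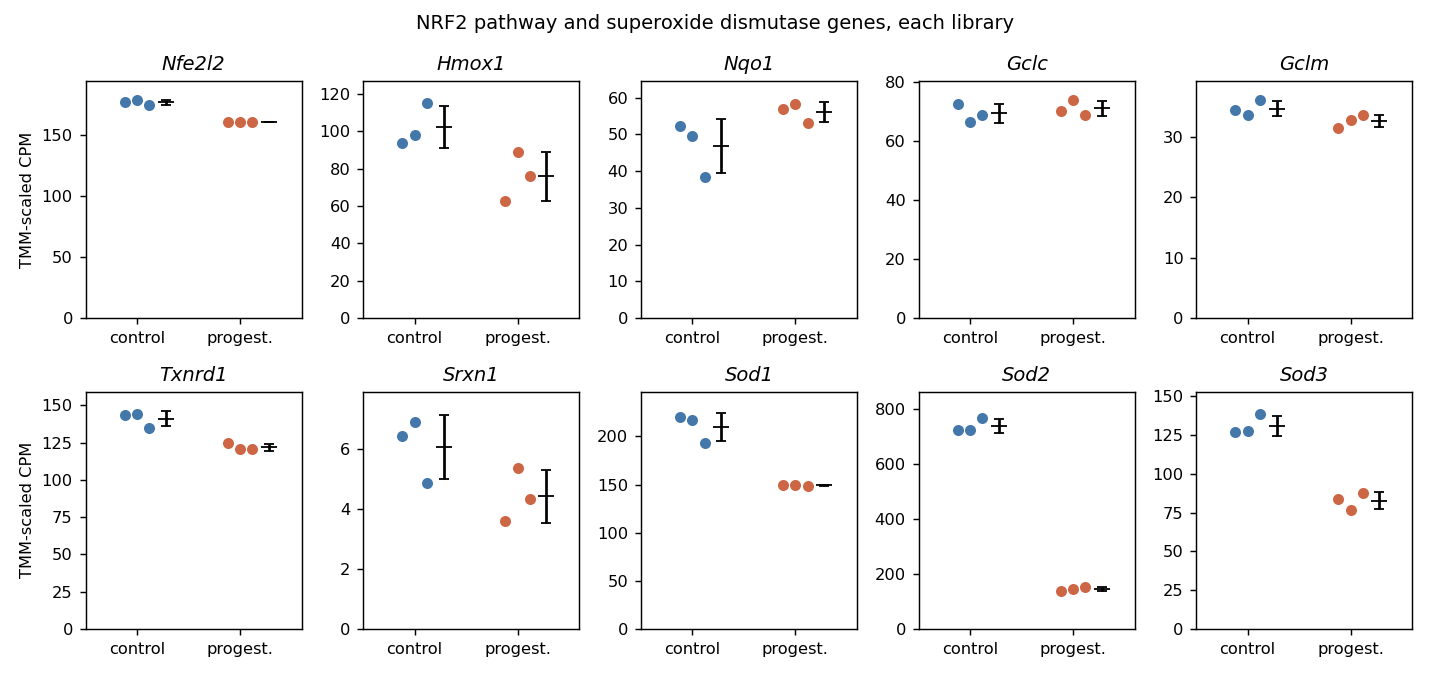
TMM-scaled CPM of the 10 members, with 1 point per library, in 3 control (blue) and 3 progesterone (orange) libraries. The mark beside each group is the mean, with the SD as bar, and each axis starts at 0. Sod2 lies between 725 and 768 CPM in controls and between 138 and 152 CPM with progesterone, while the points of Gclc and Gclm overlap between groups.

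Sod2, the mitochondrial manganese dismutase (ENSRNOG00000019048, chromosome 1, 47914759 to 47921587 in the table, whose rat build is not named), had 18420, 16891 and 17549 counts in the controls and 2904, 3100 and 3509 with progesterone. As CPM these were 725, 725 and 768 against 138, 146 and 152. Every progesterone library lay far below every control library. The mean fell from 740 ± 24.8 to 145 ± 7.23 CPM (SD, n = 3), a 5.1-fold lower level (log2 fold change -2.35 ± 0.05, SE, adjusted p = 1e-15 by edgeR). Its fall was the 457th largest among the 15075 genes tested.

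Sod1, the cytosolic copper and zinc enzyme (ENSRNOG00000002115, chromosome 11, 30363280 to 30368862), was read at 220, 217 and 193 CPM in the controls and at 149, 150 and 149 CPM with progesterone. The lowest control, replicate 3, still lay above all progesterone libraries. The log2 fold change was -0.49 ± 0.05 (SE), or 1.41-fold lower (adjusted p = 3.7e-07, edgeR). The mean of Ccs, the chaperone that loads copper into SOD1, was lower as well, from 28.1 ± 3.64 to 20.8 ± 0.813 CPM. Ccs was named after its values were seen.

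Sod3, the secreted dismutase (ENSRNOG00000003869, chromosome 14, 60958592 to 60964324), was read at 127, 127 and 139 CPM in the controls and at 83.6, 76.8 and 87.7 CPM with progesterone, again without overlap. It was 1.58-fold lower (log2 fold change -0.66 ± 0.05, SE, adjusted p = 3.3e-08, edgeR). SOD3 is made largely by vascular smooth muscle and fibroblasts. Of 14 smooth muscle and pericyte genes, 12 rose and 2 fell in these libraries, beside 31.2% higher and 31.8% lower over all genes. Their summed level was 2665 to 3002 CPM in controls and 5993 to 6615 with progesterone. Of 11 fibroblast markers, 7 were higher and 3 lower. The part of these cell types in the Sod3 result was not tested.

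Per length, Sod1 and Sod2 were about equally abundant in the controls and Sod1 led with progesterone. On the deposited FPKM scale, which divides by gene length and depth and so permits comparison between genes, Sod1 stood at 319 ± 22.2, Sod2 at 357 ± 11.8 and Sod3 at 75.6 ± 3.68 in the controls (SD, n = 3). With progesterone the FPKM levels were 226 ± 0.491, 70 ± 3.41 and 47.6 ± 3.17. The sum of the 3 genes fell from 752 ± 7.59 to 344 ± 4.76 FPKM. Sod2 made up 47.5% ± 1.99 of that sum in controls and 20.3% ± 0.781 with progesterone, whereas the share of Sod1 went from 42.4% ± 2.57 to 65.8% ± 1.04 and that of Sod3 from 10.1% ± 0.582 to 13.8% ± 0.781. The shares of each gene did not overlap between the groups.

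**Figure D2:**
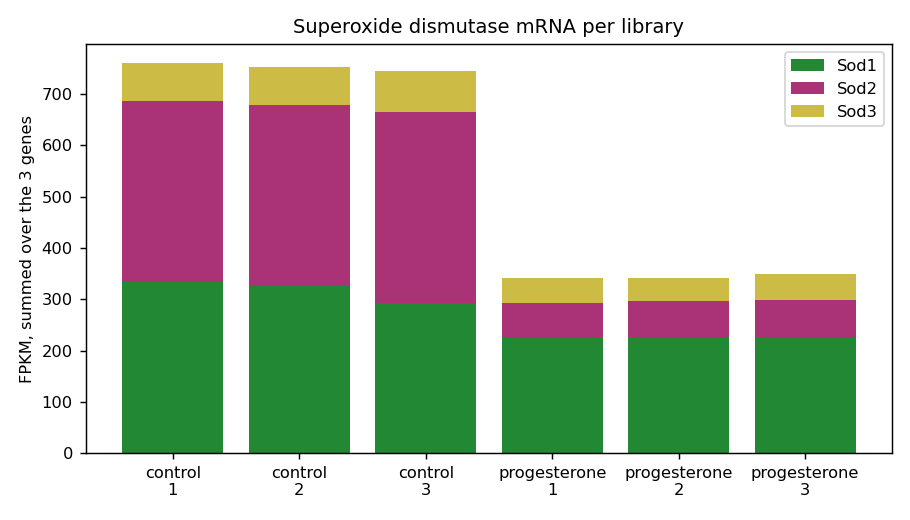
Stacked FPKM of Sod1, Sod2 and Sod3 in each of the 6 libraries. The control bars reach 744 to 759 FPKM and the progesterone bars 341 to 350 FPKM, and the Sod2 segment is the one that shrinks most.

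The ratio of Sod2 to Sod1 in FPKM was 1.05, 1.06 and 1.26 in the controls and 0.293, 0.31 and 0.324 with progesterone, without overlap. It was lower by 1.86 on the log2 scale, as the mean log2 ratio went from 0.17 to -1.69 (exact two-sided permutation test p = 0.10, the smallest that 3 against 3 allows, and 0.267 adjusted over 4 ratios). Sod3 to Sod1 was 0.238 ± 0.0292 in the controls and 0.21 ± 0.0144 with progesterone (exact permutation p = 0.30). The groups overlapped, so an unequal fall of Sod3 and Sod1 was not detectable in this ratio. Without control replicate 3 the difference in mean log2 ratio moved from -0.18 to -0.08.

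Nfe2l2 itself (ENSRNOG00000001548, chromosome 3, 62497571 to 62524996) changed little. Its level was 177, 179 and 175 CPM in the controls and 160, 161 and 160 CPM with progesterone. The groups did not overlap, and the spread within each was small. Nfe2l2 was 1.1-fold lower (log2 fold change -0.14 ± 0.04, SE, adjusted p = 0.006, edgeR). This call depended on the scaling: with upper quartile factors, which put the median of all tested genes at 0.10 (log2) and the share of changed genes that were higher from 49.6% to 60.1%, the value was -0.04 (adjusted p = 0.36).

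Txnrd1, the cytosolic thioredoxin reductase, a selenoprotein that keeps thioredoxin reduced (ENSRNOG00000009088, chromosome 7, 26946125 to 26984400), stood at 143, 144 and 135 CPM in the controls and at 125, 121 and 121 CPM with progesterone. No progesterone library reached the lowest control. It was 1.16-fold lower (log2 fold change -0.21 ± 0.04, SE, adjusted p = 0.00052, edgeR) and passed under all 15 alternatives.

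Srxn1, sulfiredoxin, which repairs overoxidised peroxiredoxins (ENSRNOG00000031167, chromosome 3, 147609095 to 147632801), was the least read member, with 164, 161 and 111 counts in the controls and 76, 114 and 100 with progesterone. As CPM these were 6.46, 6.91 and 4.86 against 3.6, 5.37 and 4.33, so the groups overlapped. The log2 fold change of -0.46 ± 0.18 (SE) passed narrowly (adjusted p = 0.039, edgeR). The call was lost without control replicate 1 (adjusted p = 0.11) or 2 (0.16), without progesterone replicate 1 (0.14) or 3 (0.095), with upper quartile scaling (0.092), with DESeq2 (0.068) and with limma on log2(FPKM + 1) (0.057) or log2(FPKM + 0.1) (0.059). It thus held in 7 of 15 alternatives, over a range of 0.0084 to 0.16. In FPKM the ratio of Srxn1 to Txnrd1 was 0.201 ± 0.0291 in the controls and 0.171 ± 0.0364 with progesterone (exact permutation p = 0.20), with overlapping groups. The mean difference in log2 ratio was -0.25, and ran from -0.40 without progesterone replicate 2 to -0.09 without progesterone replicate 1.

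Hmox1, the inducible heme oxygenase that splits heme into biliverdin, iron and carbon monoxide (ENSRNOG00000014117, chromosome 19, 14508616 to 14515456), varied most between progesterone libraries among the well-read members. It stood at 93.6, 98 and 115 CPM in the controls and at 62.5, 88.8 and 76.2 CPM with progesterone. The groups did not overlap, but their nearest values were close. The log2 fold change of -0.43 ± 0.16 (SE) did not pass with edgeR (adjusted p = 0.078). Leaving out progesterone replicate 2 brought it past the threshold (-0.55, adjusted p = 0.026), as did DESeq2 (0.024) and limma on FPKM (0.033 and 0.035), over a range of 0.024 to 0.18. Macrophages are a known source of Hmox1. In the same libraries 10 of 13 tested macrophage and leukocyte markers were higher and 1 was lower, beside 31.2% and 31.8% of all genes. The summed marker level was 53.4 to 79.2 CPM in controls and 201 to 224 CPM with progesterone. Adgre1 and Cd163 were too low to be tested. The part of these cells in the Hmox1 values was not tested.

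Nqo1, which reduces quinones by a 2-electron step and is a standard readout of NRF2 activity (ENSRNOG00000012772, chromosome 19, 38422164 to 38437180), was the member with the highest log2 fold change. Its level was 52.2, 49.6 and 38.3 CPM in the controls and 56.8, 58.3 and 53.1 CPM with progesterone. The progesterone libraries lay just above the controls, of which replicate 3 stood apart at the low end. The log2 fold change of 0.26 ± 0.11 (SE, 95% interval -0.01 to 0.53) did not pass with edgeR (adjusted p = 0.087). Without control replicate 3 it was 0.13 (adjusted p = 0.056). Leaving out control replicate 1 brought it past the threshold (0.35, adjusted p = 0.020), as did upper quartile scaling (0.36, adjusted p = 0.031), no filter (8.5e-05) and DESeq2 (0.016), over a range of 8.5e-05 to 0.23. The fit without a filter gave a slightly smaller Nqo1 value, 0.25. It also gave far smaller adjusted p-values for some other members, as for Sod1 (2.0e-25 against 3.7e-07, edgeR).

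Gclc and Gclm encode the catalytic and the modifier subunit of glutamate-cysteine ligase, the first and rate-limiting enzyme of glutathione synthesis. Gclc (ENSRNOG00000006302, chromosome 8, 85059051 to 85097468) was read at 72.8, 66.6 and 69.1 CPM in the controls and at 70.5, 74.1 and 69.1 CPM with progesterone. The groups overlapped, and the log2 fold change was 0.03 ± 0.05 (SE, 95% interval -0.07 to 0.14, adjusted p = 0.56, edgeR). Gclm (ENSRNOG00000013409, chromosome 2, 225827504 to 225847874) was read at 34.3, 33.5 and 36 CPM in the controls and at 31.4, 32.7 and 33.5 CPM with progesterone, also with overlap. Its log2 fold change was -0.09 ± 0.06 (SE, 95% interval -0.22 to 0.04, adjusted p = 0.21, edgeR). With upper quartile scaling Gclc passed at 0.13 (adjusted p = 0.028) and Gclm changed sign, to 0.0076. The FPKM ratio of the subunits was 0.98 ± 0.0502 in the controls and 1.07 ± 0.0552 with progesterone (exact permutation p = 0.20).

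**Figure D3:**
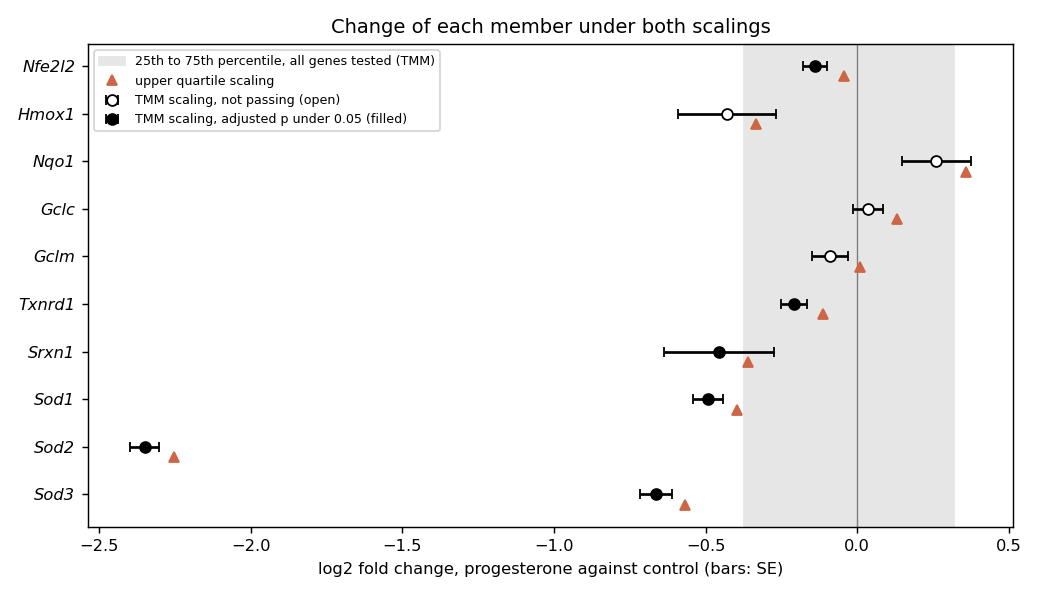
Log2 fold change of each member, progesterone against control, with TMM scaling (circles, SE as bars, filled where the adjusted p is under 0.05) and with upper quartile scaling (triangles), over a grey band from the 25th to the 75th percentile of all genes tested. Sod2 lies at -2.35, Sod3 at -0.66 and Sod1 at -0.49, outside the band, as do Hmox1 at -0.43 and Srxn1 at -0.46, and Nfe2l2, Nqo1, Gclc, Gclm and Txnrd1 lie within it with TMM scaling.

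The genes whose profile over the 6 libraries was closest to that of Sod2 were Tnfaip3, Tmem176b and Trafd1, with a root mean square difference in centred log2 CPM of 0.0238, 0.0403 and 0.0625 among 9620 genes compared. Tnfaip3, which encodes the NF-kB feedback inhibitor A20 and is on the NF-kB list described next, went from 66.2 ± 3.8 to 13.1 ± 0.668 CPM, and Trafd1 from 277 ± 5.27 to 56 ± 0.392 CPM. Closest to Nqo1 were Cox17, Rexo2 and Acsl3, with differences of 0.0522, 0.0571 and 0.0576. With 2 groups of 3 libraries, such likeness mostly restates a similar fold change.

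Sod2 is a known NF-kB target, and the NF-kB list was read beside it. Like the other lists, the NF-kB list was chosen with earlier results of these data known, so its likeness to Sod2 is a description only. Of 19 tested NF-kB subunits, inhibitors and targets, 17 were lower and 0 higher, beside 31.8% lower and 31.2% higher over all genes. Their median log2 fold change was -2.21, beside -2.35 for Sod2. Ccl7, a monocyte-attracting chemokine gene, fell from 741 ± 31 to 59.7 ± 4.18 CPM. Il6, the interleukin 6 gene, fell from 3.75 ± 0.746 to 0.306 ± 0.0228 CPM. The part of NF-kB in the Sod2 values was not tested.

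Around the members, 10 lists of related genes held 137 tested genes, of which 84 were lower, 28 were higher and 25 did not pass, with a median log2 fold change of -0.38 beside 0.00 over all genes. Thus 81.8% of these genes changed, beside 63.0% of all genes tested, of which 31.8% were lower and 31.2% higher, the shares against which the counts of each list are to be read. The NF-kB list above is part of this count, and the lists were chosen with earlier results of these data known. The difference from all genes is therefore a description only. Among the regulators and partners of NRF2, 9 of 16 were lower and 2 higher (median -0.24). Keap1, the repressor of NRF2, fell from 75.2 ± 0.766 to 60.5 ± 2.91 CPM (log2 fold change -0.31 ± 0.05, SE). Sqstm1, which encodes the autophagy receptor p62 that sequesters KEAP1 and is itself an NRF2 target, fell from 519 ± 9.59 to 217 ± 7.15 CPM. Maff, a small MAF gene, fell 3.37-fold. Cul3 had a log2 fold change of 0.12 ± 0.04 (SE, adjusted p = 0.028, edgeR), a call that was lost without control replicate 1 (adjusted p = 0.10) or 3 (0.060), without progesterone replicate 1 (0.061) or 2 (0.066), with DESeq2 (0.085), with library size scaling (0.054), without a filter (0.060) and with both limma fits (0.050 and 0.051). The count of higher regulators was 0 without control replicate 1, without control replicate 3 and with DESeq2, and 3 with upper quartile scaling. It was 1 with library size scaling, without a filter, with a filter of 1 CPM and with both limma fits. Leaving out progesterone replicate 1 or 3 also gave 1.

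Glutathione genes beyond the ligase were mostly lower, with 13 of 19 lower and 1 higher (median log2 fold change -0.68). Gstt1, a glutathione transferase gene, fell from 12 ± 1.76 to 3.18 ± 0.17 CPM and Mgst2, of the microsomal class, from 14.5 ± 0.257 to 4.3 ± 0.867 CPM. Slc7a11, the cystine importer that supplies cysteine for glutathione and a target of both NRF2 and ATF4, rose from 19.5 ± 2.42 to 28.2 ± 2.72 CPM. Members of the Gsta and Gstm families have near-identical stretches, and how shared reads were assigned is unknown, so their single values are uncertain.

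Enzymes acting on quinones, carbonyls and xenobiotics were lower in 12 of 13 tested genes and higher in none (median -0.78). The count of lower genes was 9 with upper quartile scaling, without control replicate 1 and without progesterone replicate 1, and 10 with DESeq2. Akr1c14, an aldo-keto reductase gene, fell from 40.2 ± 7.35 to 6.98 ± 1.07 CPM, and Osgin1, an oxidative stress induced growth inhibitor, from 5.03 ± 0.487 to 1.22 ± 0.396 CPM. NADPH supply was mixed: 4 of 10 genes rose and 4 fell (2 lower with upper quartile scaling). Me1, malic enzyme, and Tkt, transketolase, rose 1.27-fold and 1.23-fold, while Idh1 and Rpia fell 1.5-fold and 1.34-fold.

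Heme and iron genes changed in all 14 tested members, 9 lower and 5 higher (median -0.32). Hpx, the heme-binding protein hemopexin, fell from 196 ± 9.97 to 1.72 ± 0.176 CPM. Tfrc, the transferrin receptor, rose from 140 ± 3.47 to 440 ± 25.5 CPM, and Slc40a1, the iron exporter ferroportin, from 8.71 ± 0.954 to 14.2 ± 0.871 CPM. The ferritin light chain row Ftl1 fell from 6.65 ± 0.903 to 3.36 ± 0.462 CPM, while Fth1, the ferritin heavy chain, had no count in any library. Ferritin genes have many near-identical copies, so these rows are uncertain as levels. Gpx4 was too low to be tested, at 0.338 ± 0.0594 and 0.345 ± 0.236 CPM. How reads were assigned to the Gpx4 row is unknown, so it too is uncertain as a level.

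Genes for the removal of hydrogen peroxide, and those of the thioredoxin and sulfoxide repair list, were divided. Of catalase and the glutathione peroxidases, 4 of 5 tested were lower and 1 was higher (median -0.77), with Gpx4 among those not tested. Cat fell from 106 ± 4.42 to 52.9 ± 3.67 CPM and Gpx3, the secreted peroxidase, from 653 ± 30.5 to 349 ± 18.4 CPM, whereas Gpx1, the main cytosolic peroxidase, rose from 70.8 ± 1.99 to 90.5 ± 4.47 CPM. In the thioredoxin, peroxiredoxin and sulfoxide repair list, 9 of 21 were lower and 9 higher (median -0.05). Txnip, the thioredoxin-binding protein, and Msrb2 fell 2.29-fold and 2.22-fold, while Sesn2, a sestrin, and Glrx5, a mitochondrial glutaredoxin, rose 1.62-fold and 1.36-fold.

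In the list on copper and manganese supply, 4 of 9 tested genes were lower and 1 was higher (median -0.21). The higher one, Cox17, serves cytochrome c oxidase and not a dismutase. Slc39a14, a zinc, iron and manganese importer, fell from 255 ± 9.8 to 114 ± 7.44 CPM and Atp7a, a copper pump, from 61 ± 1.22 to 38.9 ± 3.33 CPM. Cox17, a copper chaperone for cytochrome c oxidase, had a log2 fold change of 0.21 ± 0.08 (SE, adjusted p = 0.023, edgeR). This call was lost without control replicate 3 (0.12, adjusted p = 0.12) and without progesterone replicate 1 (0.057) or 2 (0.064).

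Genes whose products make superoxide moved apart, with 5 of 11 higher and 3 lower (median 0.27). Xdh, xanthine dehydrogenase, fell from 414 ± 13.3 to 17.9 ± 0.854 CPM, and Cyba, the p22phox subunit of NADPH oxidases, from 86.4 ± 1.89 to 38.2 ± 2.68 CPM. Cybb, the phagocyte NADPH oxidase subunit, rose from 9.9 ± 3.05 to 48.8 ± 4.86 CPM and Rac2 from 4.58 ± 0.804 to 7.51 ± 0.721 CPM. Cybb and Rac2 are typical of leukocytes, whose markers rose in the same libraries as given beside Hmox1, and the part of those cells was not tested.

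**Figure D4:**
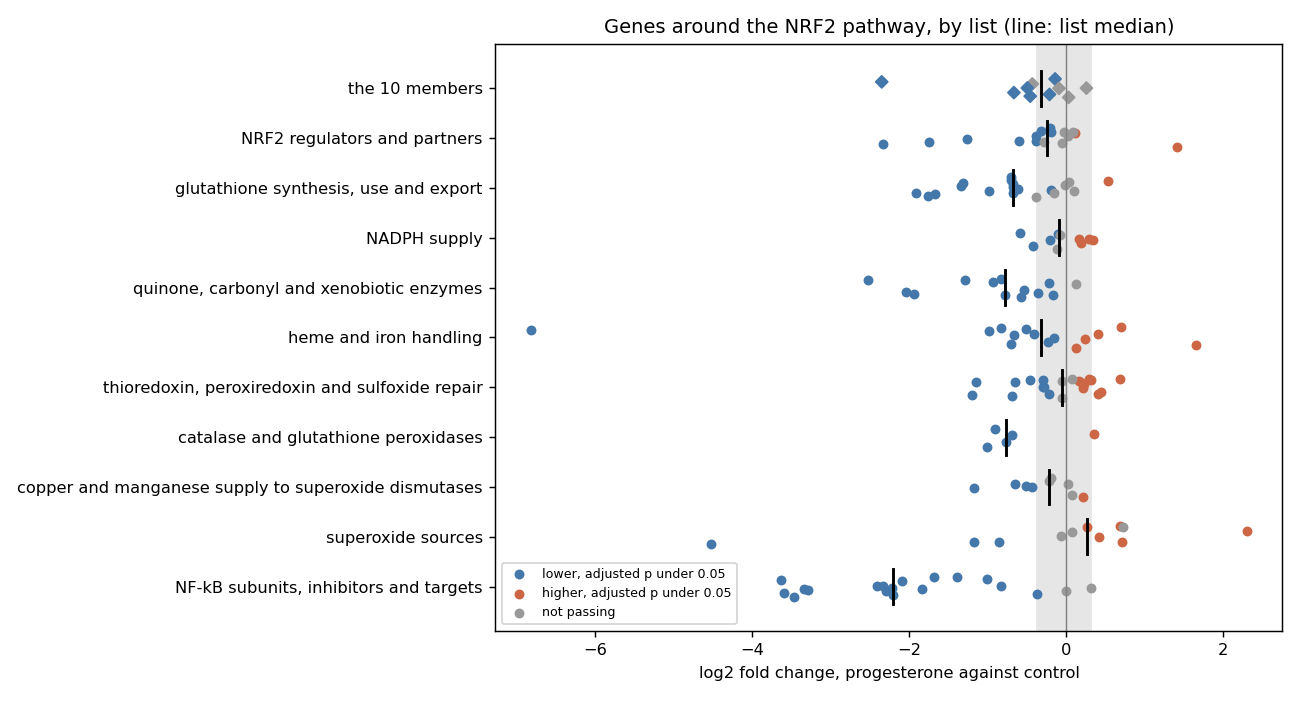
Log2 fold change of the 10 members (diamonds) and of each tested gene in the 10 surrounding lists (circles), coloured by call, with the list median as a black line and a grey band from the 25th to the 75th percentile of all genes tested. The NF-kB list has its median at -2.21, next to Sod2 at -2.35, and the medians of the glutathione (-0.68), quinone (-0.78) and peroxidase (-0.77) lists also lie below the band, while those of the other 6 lists lie inside it.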

How the data were processed

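RNA-seq counts of 3 control and 3 progesterone libraries were analysed, grouped by title. The authors deposited raw counts per gene and FPKM values scaled by gene length and depth. Bowtie 0.12.2 and mm8, a mouse build, stand in the submitters' processing notes, but the rows are rat Ensembl genes. The rat build, counter and strand setting were not given in the sources used. Where a symbol repeated, the row with the highest count was kept.

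Differences were tested on counts by edgeR 4.0.16 (R 4.3.3), with robust glmQLFit and glmQLFTest, TMM factors and Benjamini-Hochberg adjustment at 0.05, after filterByExpr (count of at least 10, total of at least 15). The SE was derived from the F statistic, and 95% intervals from it and the moderated degrees of freedom. Counts of 15071 genes were simulated for this comparison, with 50 genes changed at each fold and a single dispersion shared by all genes. Recovery was 16% at 1.25-fold, 66% at 1.5-fold and 90% at 2-fold. In the data 63.0% of genes changed, which loosens the adjusted threshold, so these rates are not those of the members. Small changes of members could still be missed, although Nfe2l2 at 1.1-fold and Txnrd1 at 1.16-fold passed. Within-group correlations of log2 CPM were 0.988 to 0.990, and no replicate pair agreed within sampling noise (chi-square 4.51 to 7.62 per degree of freedom). Alternatives were other scalings and filters, each library left out, a replicate block, DESeq2 1.42.0, and limma 3.58.1 on log2(FPKM + 1) and log2(FPKM + 0.1).

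The members and lists were chosen with earlier results of these data known. Of 232 list symbols, 225 had a row. Named list genes are up to 2 with the highest and 2 with the lowest log2 fold change per list among changed genes of at least 1 CPM, with Keap1. Ccs, Fth1 and Gpx4 were named after their values were seen, as were markers too low to be tested. Profile likeness used genes of at least 10 CPM. Promoter letters are from RefSeq (GRCr8).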

Additional observations from a re-analysis of the deposited data

How the results depend on the processing

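Sod1, Sod2, Sod3 and Txnrd1 stayed lower and past the threshold under all 15 alternatives, with log2 fold changes of -0.55 to -0.40, -2.38 to -2.25, -0.71 to -0.57 and -0.24 to -0.11. The number of members lower was 6, or 4 with upper quartile scaling and 7 with a replicate block, and 5 to 7 with a library left out. The number of members higher was 0, but 2 with upper quartile scaling, 1 without a filter, 1 with a replicate block, 1 with DESeq2, and 0 to 1 with a library left out. Gclm turned from -0.09 to 0.0076 with upper quartile scaling, where the median of all genes stood at 0.10. Upper quartile factors shift every gene by the same amount by construction, and for the other changes the cause was not tested. Over all genes, 8608 to 9871 changed against 9497, and 9508 with the replicate block. Hmox1 and Nqo1 passed with the block (adjusted p = 0.030 and 0.0017, edgeR). The replicate numbers did not pair the libraries: deviations of same-numbered libraries from their group means correlated at 0.05, 0.02 and -0.00. Srxn1 had the lowest counts of the members and the largest SE, 0.18, beside 0.16 for Hmox1.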
